A study of Oreochromis niloticus with 12 samples.

Results

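The subject is the set of 7 genes for enzymes of the citric acid cycle that Nile tilapia annotation lists under the symbols cs, idh3a, dlst, suclg1, suclg2, fh and mdh2. The deposited data list 42609 genes, of which 31551 had any count. The members were taken by symbol, and the counts of their transcripts were added per gene. RNA of fast muscle was sequenced from 6 domesticated and 6 wild females, all at 5 months of age, after removal of ribosomal RNA and in 1 sequencing lane. The domesticated fish were the first generation under domestication, each corresponded to a wild progenitor, and both groups otherwise carry no treatment or allele in the labels. Libraries are named D53, D63, D66, D68, D70 and D72 for domesticated fish and W53, W63, W66, W68, W70 and W72 for wild fish, where a shared number marks a genetic pair.

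The citric acid cycle runs in the matrix of mitochondria. It takes in the acetyl group of acetyl-CoA, releases it as carbon dioxide, and hands the electrons to the respiratory chain as NADH and reduced flavin. In muscle it carries most of the sustained ATP supply, and fast fibres, which rely on glycolysis for bursts, hold fewer mitochondria than slow fibres. Citrate synthase (cs) opens the cycle, isocitrate dehydrogenase (idh3a) and the 2-oxoglutarate dehydrogenase complex (dlst) release carbon dioxide, succinyl-CoA ligase (suclg1, suclg2) makes GTP or ATP, and fumarate hydratase (fh) and malate dehydrogenase (mdh2) restore oxaloacetate.

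Of the 7 members, 6 had enough counts to be tested, and 2 of them rose in domesticated fish at an adjusted p under 0.05 (limma with Benjamini-Hochberg adjustment over all 8425 tested genes). These were fh, by 1.73 on the log2 scale, and suclg1, by 0.95. None fell (0), also with voom weights, and at an unadjusted p under 0.05 the numbers were 3 higher (cs, suclg1 and fh) and 0 lower. Over all tested genes 13.2% were called, 6.69% as higher and 6.50% as lower in domesticated fish. The median log2 fold change of the 6 tested members was 0.73, beside -0.02 for all tested genes. The members' median was 0.349 without W66 and W70 and 0.325 with plain library totals, with 4 of 6 values positive in each. With scaled library totals a single member, fh, had no overlap between the groups, which held for 2.84% of all tested genes with the higher values in domesticated fish. With plain library totals the groups overlapped for fh as well.

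Gene counts summed to 4312367 to 8478988 per library in domesticated fish and to 3395622 to 8472454 in wild fish. The 10 most abundant genes took up to 51.0% of the counts in domesticated fish and up to 52.1% in wild fish, and the scaling factors (TMM, which correct totals for such genes) ran from 0.614 to 1.29 in domesticated fish and from 0.678 to 1.81 in wild fish. W66 and W70 stood apart, with the largest factors (1.63 and 1.81) and the lowest levels of the creatine kinase transcript ckma, a fast muscle marker, at 20600 and 17700 CPM (gene counts scaled to a common library total) against 34900 to 82100 CPM elsewhere. Fast muscle markers summed to 150700 to 314100 CPM in domesticated fish and 55070 to 306800 CPM in wild fish. Nearly all of this came from acta1b, ckma, ckmb, mylpfa and casq1a. By contrast, mylpfb ran from 5.28 to 502 CPM, acta1a was at 22.5 CPM or less and the untested atp2a1 at 3.12 CPM or less. None of the 7 tested markers was called (0, with 2 higher at an unadjusted p under 0.05, limma). Their log2 fold changes were nevertheless positive in 7 of 7, with a median of 0.857, beside 0.73 for the tested members. The marker casq1a was called higher with plain library totals (1.29, adjusted p 0.0399, limma) and without W63 (2.07, adjusted p 0.0278). Another, acta1a, was called higher without D53 (3.48, adjusted p 0.00408, limma). With plain library totals in place of scaled ones the median log2 fold change of all genes was -0.42, and the calls were 87 higher and 593 lower in place of 564 and 548, so that each fold change below is relative to the scaling.

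Citrate synthase joins acetyl-CoA to oxaloacetate, and its activity is a common measure of mitochondrial content in muscle. The gene cs lies on linkage group LG20, from 9421191 to 9435976, in assembly O_niloticus_UMD_NMBU. It had 846, 566, 689, 402, 552 and 604 CPM in D53, D63, D66, D68, D70 and D72. In wild fish it had 419, 479, 219, 583, 163 and 340 CPM in W53, W63, W66, W68, W70 and W72. The ranges overlapped, since W68 lay above D63, D68 and D70, and the lowest values were those of W70 and W66. The means were 610 ± 149 CPM in domesticated fish and 367 ± 159 CPM in wild fish (SD over 6 fish each). The log2 fold change was 0.83 (SE 0.32, 95% interval 0.15 to 1.51) with an adjusted p of 0.0979 (limma), so that cs was not called. It was higher in the domesticated fish of 5 of 6 pairs, with pair 68 the other way at -0.53.

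NAD-dependent isocitrate dehydrogenase turns isocitrate into 2-oxoglutarate, and idh3a encodes its catalytic subunit. The gene lies on LG7, from 52153046 to 52159251, and its 2 annotated transcripts together received 0 counts in the 6 domesticated libraries and 1 count, in W66, in the 6 wild ones. A count of 0 allows up to 3 counts, which is 0.336 to 0.665 CPM depending on the library, and both groups were at or under this limit. No fold is given, and the exact two-sided permutation test over libraries (p = 0.994, n = 6 each) holds no information with so few counts. Genes with 2 annotated transcripts were less often measured in these tables in general: 6.38% of 6868 such genes passed the filter on low counts, against 27.0% of 27852 genes with 1 transcript, and 13.4% of the aligned reads were on average set aside as ambiguous. Whether this accounts for idh3a was not tested. The other 6 members each have 1 annotated transcript. Of the genes called below, dlat, perm1b and col1a1b have 2, pcxb has 4 and esrrga has 9. Their levels may likewise lack reads set aside as ambiguous, which was not tested.

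The partner subunits of idh3a were measured. The gene idh3g, for the gamma subunit, rose in domesticated fish, at 73.4 ± 11.7 CPM, against 37.8 ± 8.08 CPM in wild fish (SD over 6 fish each). Its log2 fold change was 0.97 (adjusted p 0.0109, limma), and its groups did not overlap in scaled CPM. By share of unscaled gene counts they overlapped, since W66 (193 of 3395622) lay above D63 (257 of 7569322). The gene idh3b, for the beta subunit, has 2 transcripts and stood at 18.7 ± 6.58 CPM in domesticated fish and 20.1 ± 3.46 CPM in wild fish, a log2 fold change of -0.17 (adjusted p 0.698, limma). The NADP-dependent mitochondrial enzyme idh2, which carries out the same conversion with another cofactor, averaged 1475 ± 439 CPM in domesticated fish and 807 ± 263 CPM in wild fish. In scaled CPM it was higher in 6 of 6 pairs, and it fell short of the threshold (log2 fold change 0.88, adjusted p 0.0574, limma).

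**Figure D1:**
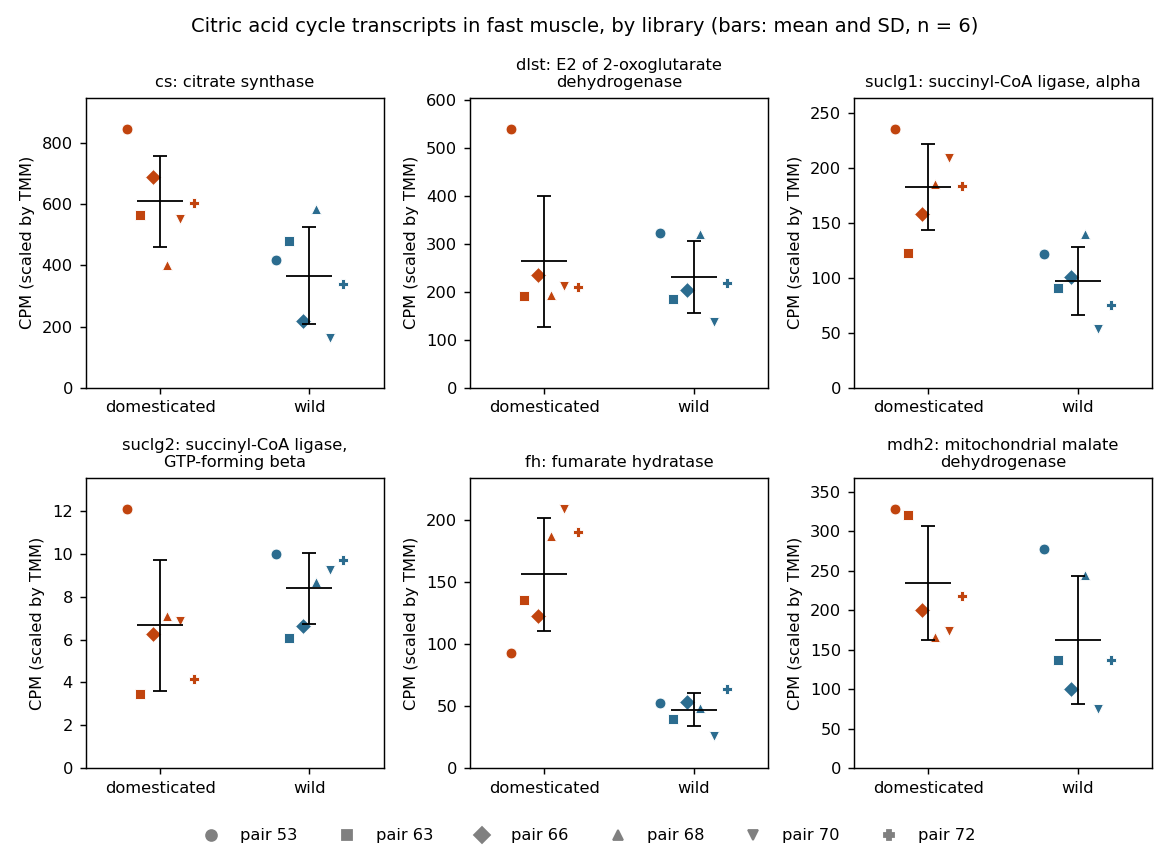
Level of each tested member in every library, in CPM scaled by TMM, with domesticated fish on the left and wild fish on the right of each panel, marker shapes for the pair numbers, and bars for the mean and SD (n = 6). The 6 domesticated libraries of fh lie between 92.4 and 209 CPM, all above the wild ones (25.4 to 63.8 CPM), while the groups overlap for the other members.

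The 2-oxoglutarate dehydrogenase complex makes succinyl-CoA, and dlst encodes its E2 subunit, which carries the succinyl group on a lipoyl arm. The gene lies on LG19, from 10208819 to 10220844. It had 540, 191, 236, 193, 213 and 210 CPM in D53, D63, D66, D68, D70 and D72. In W53, W63, W66, W68, W70 and W72 it had 323, 185, 204, 320, 137 and 218 CPM. The value of D53 lay far above all others, and the remaining 5 domesticated libraries lay within the wild range. The log2 fold change was 0.14 (SE 0.30, 95% interval -0.50 to 0.79, adjusted p 0.796, limma), so that the interval spans 0.705 to 1.72-fold. Without D53 it was -0.08, so that the sign rested on that library.

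The complex partners of dlst were not called either. The gene ogdha, for the E1 subunit that gives the complex its specificity, had a log2 fold change of 0.29 (adjusted p 0.496, limma). The gene dld, for the E3 subunit that pyruvate dehydrogenase shares, had one of -0.06 (adjusted p 0.921, limma). The genes listed as ogdhb, ogdhl and dldh did not pass the filter on low counts. The log2 ratio of dlst to dld counts within a library, which needs no scaling between libraries, was -0.81 ± 0.15 in domesticated fish and -1.01 ± 0.16 in wild fish (SD over 6 fish each), and both groups kept to a span from -1.23 to -0.62. Among all tested genes, dld was also the third nearest to dlst in its pattern over the 12 libraries, as described below.

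Succinyl-CoA ligase turns succinyl-CoA into succinate and is the step of the cycle that makes a nucleoside triphosphate directly. Its alpha subunit, suclg1, pairs either with the GTP-forming beta subunit suclg2 or with the ATP-forming beta subunit sucla2. The gene suclg1 lies on LG6, from 19956390 to 19976480. It had 235, 123, 158, 185, 209 and 183 CPM in D53, D63, D66, D68, D70 and D72. In W53, W63, W66, W68, W70 and W72 it had 122, 90.9, 101, 140, 53.2 and 75.4 CPM. In scaled CPM only D63 lay within the wild range, below W68, and each domesticated fish was above its wild counterpart (6 of 6 pairs, by 0.40 to 1.97 on the log2 scale). By share of unscaled gene counts D66 (881 of 8478988) lay below W66 (547 of 3395622).

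The alpha subunit rose in domesticated fish, at 182 ± 39.0 CPM, against 96.9 ± 31.2 CPM in wild fish (SD over 6 fish each), a log2 fold change of 0.95 (SE 0.26, 95% interval 0.39 to 1.51, adjusted p 0.0293, limma). The call was lost with plain library totals (0.54, adjusted p 0.354) and without both W66 and W70 (0.79, adjusted p 0.101). Totals without the 10 most abundant genes lost it as well (0.62, adjusted p 0.193, limma). It was also lost without any single one of W66, W70, W72, D70 and D72, at adjusted p of 0.0504 to 0.0668.

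The beta subunit suclg2 lies on LG5, from 29504343 to 29606242, and was counted thinly, with 16 to 108 counts per library. It had 12.1, 3.46, 6.29, 7.10, 6.86 and 4.18 CPM in D53, D63, D66, D68, D70 and D72. In W53, W63, W66, W68, W70 and W72 it had 10.01, 6.06, 6.62, 8.72, 9.25 and 9.72 CPM. The highest value was that of D53 and the lowest those of D63 and D72, and the wild values lay between these. The log2 fold change was -0.42 (SE 0.29, 95% interval -1.03 to 0.20, adjusted p 0.360, limma), with the domesticated fish lower in 5 of 6 pairs. The other beta subunit, sucla2, averaged 218 ± 87.4 CPM in domesticated fish and 185 ± 75.5 CPM in wild fish (SD over 6 fish each), a log2 fold change of 0.27 (adjusted p 0.595, limma).

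Within each library the counts of the alpha subunit could be set against those of its partners without scaling. The log2 ratio of suclg1 to suclg2 counts was 4.28, 5.11, 4.63, 4.68, 4.91 and 5.42 in D53, D63, D66, D68, D70 and D72. In W53, W63, W66, W68, W70 and W72 it was 3.60, 3.89, 3.91, 3.99, 2.52 and 2.95. The groups did not overlap, and the mean ratio was 1.36 higher in domesticated fish. Set against sucla2, the log2 ratio of suclg1 counts averaged -0.22 ± 0.40 in domesticated fish and -0.90 ± 0.28 in wild fish (SD over 6 fish each), and there D53 lay within the wild range. These ratios were looked at after the levels were seen and are given as a description, with no test. Their mean differences follow from the fold changes of the genes and are no separate evidence. Of all ratios looked at, that of suclg1 to suclg2 was the only one without overlap.

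**Figure D2:**
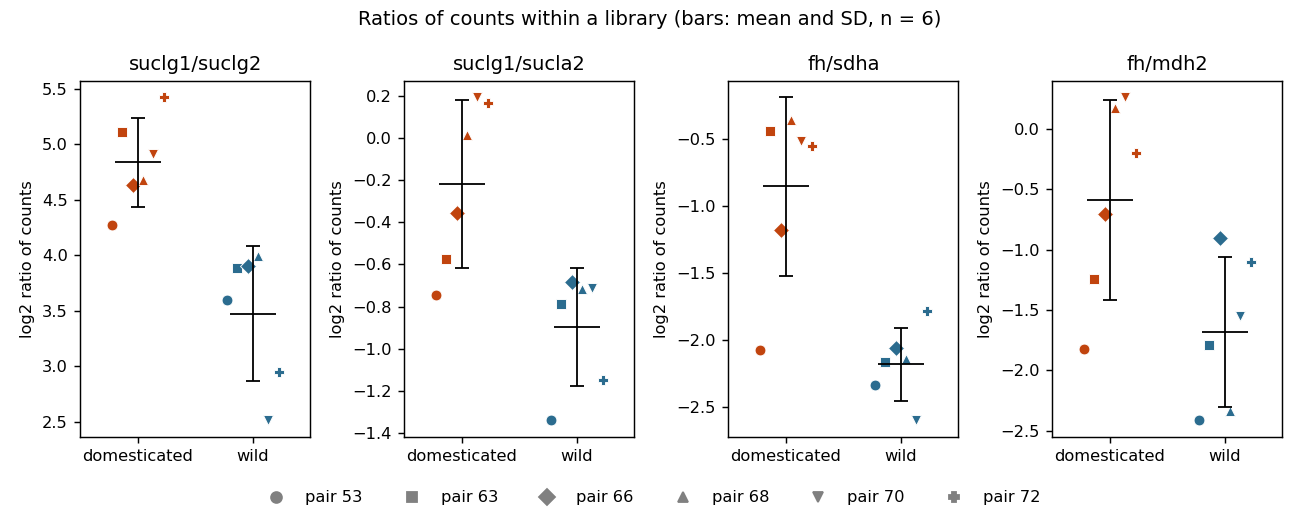
Log2 ratio of the counts of a gene pair within each library, with domesticated fish on the left and wild fish on the right of each panel, marker shapes for the pair numbers, and bars for the mean and SD (n = 6). For suclg1 over suclg2 the domesticated libraries lie at 4.28 or above and the wild ones at 3.99 or below, whereas D53 falls within the wild range for the other 3 ratios.

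Succinate dehydrogenase, the step between succinyl-CoA ligase and fumarate hydratase and also complex II of the respiratory chain, has no gene among the 7. Its flavoprotein subunit sdha, which binds succinate, had a log2 fold change of 0.40 (adjusted p 0.265, limma), its iron-sulfur subunit sdhb one of 0.73 (adjusted p 0.109) and the membrane anchor sdhc one of 0.61 (adjusted p 0.138), none of them called. The assembly factors sdhaf3 and sdhaf4, which help to mature the iron-sulfur and the flavoprotein subunit, both rose, by 1.46 (adjusted p 0.0154) and 0.89 (adjusted p 0.0238).

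Fumarate hydratase adds water to fumarate and gives malate, and the same gene is known in mammals to supply both a mitochondrial and a cytosolic enzyme. The gene fh lies on LG23, from 41885251 to 41887365. It had 92.4, 135, 123, 187, 209 and 190 CPM in D53, D63, D66, D68, D70 and D72. In W53, W63, W66, W68, W70 and W72 it had 52.0, 39.7, 53.3, 48.4, 25.4 and 63.8 CPM. In scaled CPM every domesticated library was above every wild library, and the lowest domesticated value, in D53, was 92.4 CPM against a highest wild value of 63.8 CPM in W72. By share of unscaled gene counts the groups overlapped, since W66 (290 of 3395622) lay above D63 (624 of 7569322) and D66 (683 of 8478988). The counts behind these values were 624 to 1125 in domesticated fish and 216 to 459 in wild libraries, so that counting error is small beside the spread between fish.

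Levels of fh averaged 156 ± 45.8 CPM in domesticated fish and 47.1 ± 13.2 CPM in wild fish (SD over 6 fish each). The log2 fold change was 1.73 (SE 0.27, 95% interval 1.14 to 2.31), a 3.31-fold rise with an adjusted p of 0.00293 (limma). Within pairs the fh difference in scaled CPM was 0.83, 1.76, 1.20, 1.95, 3.03 and 1.58 on the log2 scale for pairs 53, 63, 66, 68, 70 and 72, and its highest value, in pair 70, came with the lowest wild level. The call held under all 23 settings tried, the one reported included, with a log2 fold change of 1.32 to 1.88. The single-transcript setting among them could not differ, since fh has 1 annotated transcript. The log2 fold change was 1.59 without W66 and W70 (adjusted p 0.0199) and 1.32 with plain library totals (adjusted p 0.0295).

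Counts of fh were set against those of its neighbours in the cycle within the same library, after the levels were seen. The mean differences in these ratios follow from the fold changes of the genes and are no separate evidence. The log2 ratio of fh to sdha counts was -0.86 ± 0.67 in domesticated fish and -2.18 ± 0.27 in wild fish (SD over 6 fish each), with 5 domesticated libraries above all wild ones and D53, at -2.08, within the wild range. For fh over mdh2 the log2 ratio was -0.59 ± 0.83 in domesticated fish and -1.68 ± 0.62 in wild fish (SD over 6 fish each), and the groups overlapped. D53 thus had, in scaled CPM, the lowest fh level of the domesticated fish and the highest level of each of the other 5 tested members.

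Mitochondrial malate dehydrogenase closes the cycle by turning malate into oxaloacetate. The gene mdh2 lies on LG11, from 11288590 to 11290059. It had 328, 320, 200, 166, 174 and 219 CPM in D53, D63, D66, D68, D70 and D72. In W53, W63, W66, W68, W70 and W72 it had 278, 137, 99.9, 245, 74.5 and 137 CPM. W53 and W68 lay among the domesticated values, while the other 4 wild libraries were below all of them. The means were 234 ± 72.1 CPM in domesticated fish and 162 ± 81.3 CPM in wild fish (SD over 6 fish each), and the log2 fold change of 0.63 (SE 0.33, 95% interval -0.07 to 1.33) was not called (adjusted p 0.214, limma).

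The cytosolic counterpart of mdh2, mdh1ab, a part of the malate-aspartate shuttle, rose in domesticated fish, at 610 ± 49.8 CPM, against 329 ± 98.2 CPM in wild fish (SD over 6 fish each). Its log2 fold change was 0.95 (adjusted p 0.0242, limma), and its groups did not overlap in scaled CPM. By share of unscaled gene counts they overlapped, since W66 (1820 of 3395622) lay above D63 (2907 of 7569322). The log2 ratio of mdh2 to mdh1ab counts averaged -1.43 ± 0.39 in domesticated fish and -1.11 ± 0.48 in wild fish (SD over 6 fish each), with overlap. For mdh2 over cs, the enzymes on either side of oxaloacetate, the log2 ratio was -1.40 ± 0.34 in domesticated fish and -1.20 ± 0.39 in wild fish, again with overlap.

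**Figure D3:**
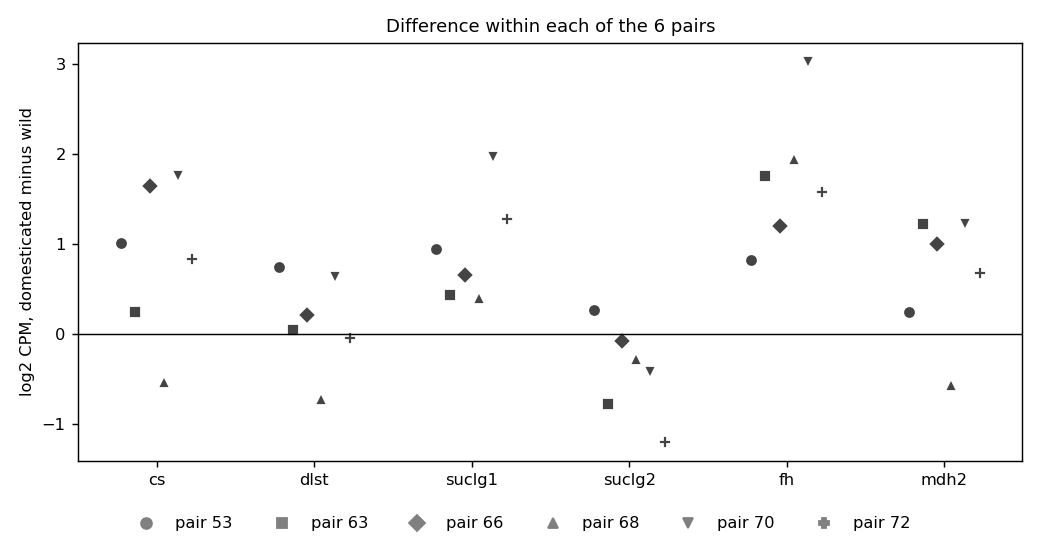
Difference in log2 CPM within each of the 6 genetic pairs, domesticated minus wild, for the 6 tested members, with a marker shape per pair. All 6 pairs lie above 0 for fh and suclg1, 5 for cs and mdh2, 4 for dlst and 1 for suclg2, and pair 68 lies below 0 for cs, dlst, suclg2 and mdh2. The differences are in scaled CPM. By share of unscaled gene counts D66 lay below W66 for fh, suclg1, dlst and mdh2.

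In scaled CPM the libraries shared much of their order across the members. D53 had the highest value of 5 of the 6 tested members and W70 the lowest of 5, with fh the exception for D53 and suclg2 for W70. In the wild group W53 and W68 were the highest libraries for dlst, suclg1 and mdh2, and W68 also for cs. These ranks depend on the scaling, whose factor was largest in W70 (1.81). By share of unscaled gene counts D53 stayed highest for cs, dlst, suclg1 and mdh2. W70 was then lowest for cs alone, and W63 lay below it for dlst, suclg1, fh and mdh2. For fh that was 216 of 8083798 counts in W63 against 217 of 4870078 in W70. The spread within a group, as a coefficient of variation, was 21.4% for suclg1 to 51.7% for dlst in domesticated fish and 19.8% for suclg2 to 50.2% for mdh2 in wild fish.

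Over the 12 libraries, the gene with the pattern most like the average of the 6 tested members was LOC100695385, at a root mean square difference of 0.141 in centred log2 CPM, where the median over 8419 genes was 0.767. The next were ndufa9a at 0.171, a subunit of complex I, uqcrfs1 at 0.174, the iron-sulfur protein of complex III, LOC100702099 at 0.179 and slc25a4 at 0.179, an ADP/ATP carrier of the inner mitochondrial membrane. For single members, looked at after their values were seen, the nearest genes to suclg1 were uqcrc2a (0.126), a subunit of complex III, and idh3g (0.155). Among the nearest to mdh2 was sdhc (0.203). The nearest gene to cs was ndufv1 (0.223), a subunit of complex I, and to dlst pex19 (0.135), a peroxisome biogenesis factor, with dld and sucla2 both at 0.176. For fh the nearest gene, LOC100704527, was at 0.241 and the nearest with a name, mrps33, a mitochondrial ribosomal protein, at 0.352. All of these values share the same libraries and scaling and are descriptions.

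Of the other enzymes and assembly factors of the cycle, 17 were found by symbol and 12 were tested, of which 3 rose (idh3g, sdhaf3 and sdhaf4) and none fell (0, also at an unadjusted p under 0.05, and with voom weights). Here and for the lists below, the share called higher over all tested genes was 6.69%. All of these lists were chosen with earlier results of these data known. At an unadjusted p under 0.05, 7 of the 12 were higher. Their median log2 fold change was 0.63 and 10 of 12 values were positive. With plain library totals, with totals without the 10 most abundant genes, or without W66 and W70, no gene of this list was called (0), and the median was 0.22 with plain totals, 0.30 without the 10 genes and 0.36 without these libraries. The call of sdhaf4 was also lost without W70 alone (0.86, adjusted p 0.0501, limma) and with no filter on low counts (1.04, adjusted p 0.0634).

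**Figure D4:**
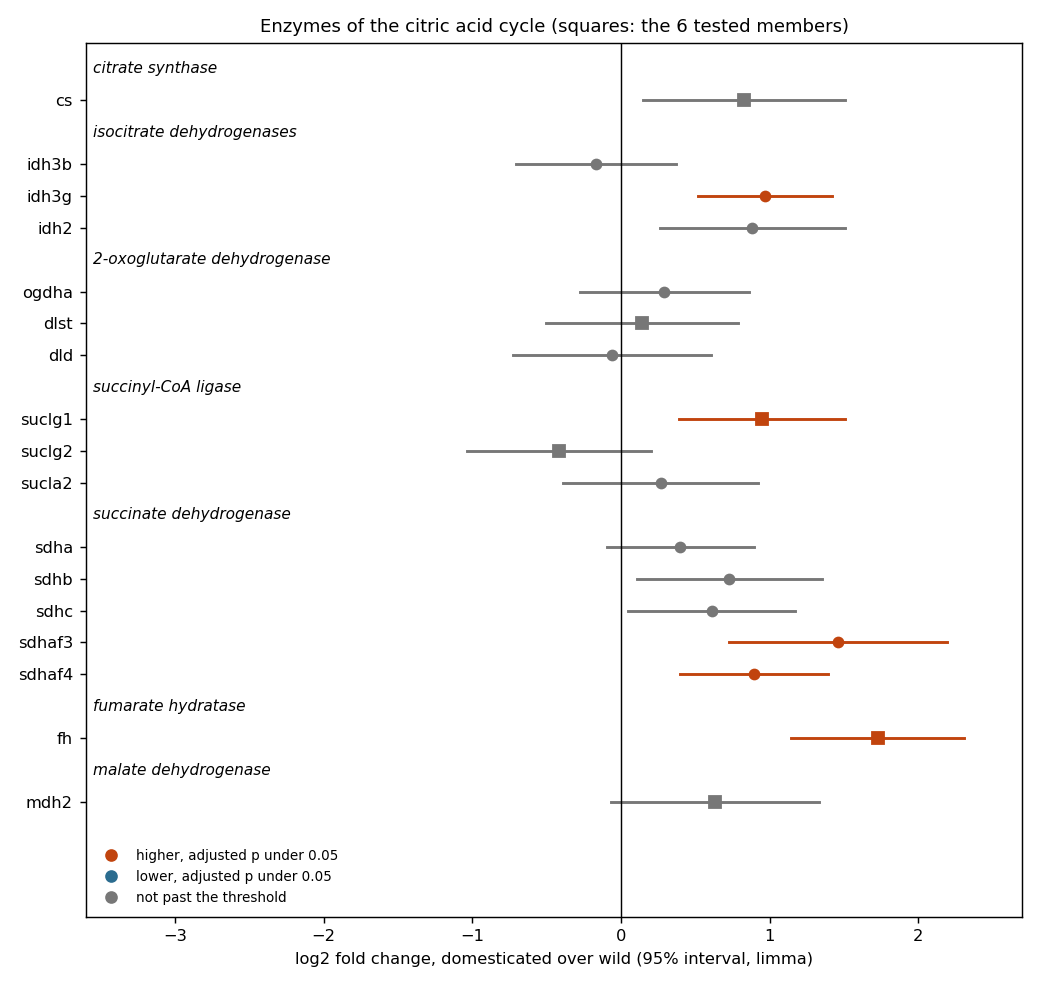
Log2 fold change, domesticated over wild, with its 95% interval (limma), for tested genes of the cycle in the order of the reactions, with squares for the members and circles for their partners, red for a rise at an adjusted p under 0.05 and grey for no call. The value of fh, 1.73, is the largest, and the intervals of dlst, dld, ogdha, sucla2, suclg2, idh3b, sdha and mdh2 include 0.

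Pyruvate enters the mitochondrion through a carrier and becomes acetyl-CoA in the pyruvate dehydrogenase complex. Of the complex, its regulators and the carrier 13 genes were found and 11 tested, of which 4 rose and none fell (0, also at an unadjusted p under 0.05, and with voom weights). These were pdha1a, for the E1 alpha subunit, by 1.23 (adjusted p 0.0108, limma), dlat, for the E2 subunit, by 0.87 (adjusted p 0.0320), the carrier subunit mpc1 by 1.19 (adjusted p 0.0108) and pdpr, a regulatory subunit of the pyruvate dehydrogenase phosphatase, by 0.69 (adjusted p 0.0199). With plain library totals none was called (0), without W66 and W70 mpc1 alone was, with totals without the 10 most abundant genes pdha1a alone was, and with no filter on low counts pdha1a and mpc1 were. The call of dlat was also lost without any single one of W53, W66, W70, D53, D68, D70 and D72, at adjusted p of 0.0515 to 0.0614.

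Other reactions feed the cycle with intermediates or draw from it, and 8 of 15 such genes found were tested. This list too was chosen with earlier results of these data known, and over all tested genes 6.69% were called higher. Of the 8 tested here 6 rose. The malic enzymes, which link malate to pyruvate, all did: the mitochondrial me2 averaged 103 ± 41.3 CPM in domesticated fish and 30.1 ± 4.23 CPM in wild fish (SD over 6 fish each; log2 fold change 1.66, adjusted p 0.00387, limma), me3 rose by 1.29 (adjusted p 0.00812) and the cytosolic me1 by 1.11 (adjusted p 0.0272). Pyruvate carboxylase (pcxb), which makes oxaloacetate, rose by 1.23 (adjusted p 0.00668), a subunit of propionyl-CoA carboxylase (pccb), on the way to succinyl-CoA, by 1.26 (adjusted p 0.00577), and oxct1a, which draws on succinyl-CoA to activate ketone bodies, by 1.02 (adjusted p 0.0158). The call of me2, as that of fh, held under all 23 settings.

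The gene called lower was aclya, for ATP citrate lyase, which splits citrate in the cytosol to supply fat synthesis. It had 4 to 8 counts per library in domesticated fish and 16 to 83 in wild fish, at 0.560 to 1.73 CPM in domesticated fish and 2.45 to 10.3 CPM in wild fish, with the highest counts in W70 and W66. It passed the filter of 10 scaled counts through the wild libraries alone, where it is high, so that it had to differ once tested, and a stricter filter left it out. Its log2 fold change was -2.02 (adjusted p 0.0113, limma), and -1.40 without W66 and W70, where it was not called (adjusted p 0.083). Without these 2 libraries 3 genes of the feeding and draining list rose (me2, pccb and pcxb), and with plain library totals 1 did (me2). With totals without the 10 most abundant genes 3 did (me2, me3 and pccb). The call of me1 was also lost without any single one of W66, W70, W72 and D70, at adjusted p of 0.05 to 0.0625.

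**Figure D5:**
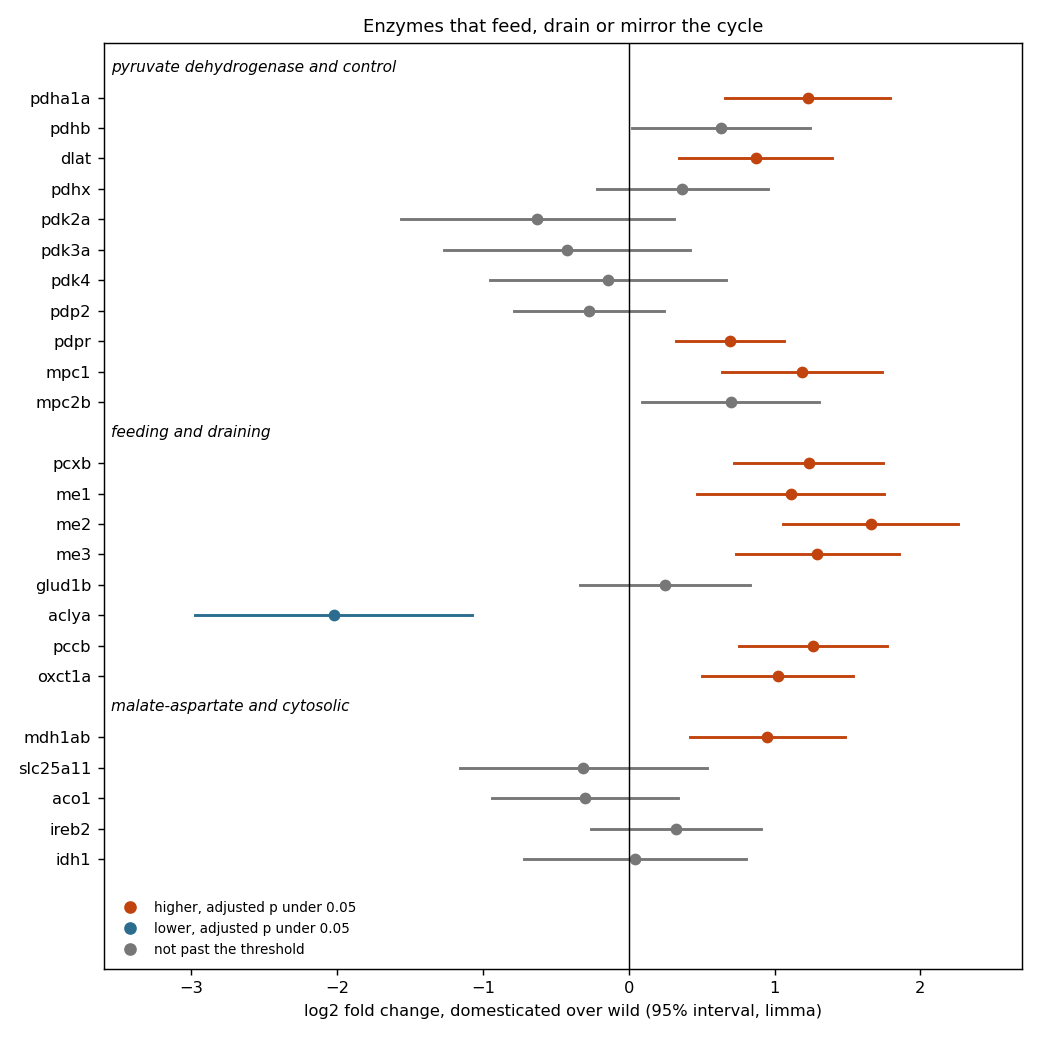
Log2 fold change, domesticated over wild, with its 95% interval (limma), for tested genes of the pyruvate dehydrogenase complex and its control, of reactions that feed or drain the cycle, and of the malate-aspartate shuttle and cytosolic counterparts, in red for a rise, blue for a fall and grey for no call at an adjusted p under 0.05. In the feeding and draining group 6 of 8 genes rose, between 1.02 and 1.66, beside 6.69% called higher over all tested genes. The gene aclya, which passed the filter on low counts through the wild libraries alone, is at -2.02.

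Among the shuttle and cytosolic enzymes 5 of 10 genes found were tested, and mdh1ab was the one called. Its call was lost with plain library totals (0.55, adjusted p 0.245, limma) and without W66 and W70 (0.77, adjusted p 0.0804). It was also lost with totals without the 10 most abundant genes (0.62, adjusted p 0.0971). Of 19 genes found for regulators of mitochondrial genes 10 were tested, and perm1b, a muscle regulator known in mammals to be induced by PGC-1 and estrogen-related receptors, was the one called. It was lower in domesticated fish, at 9.92 ± 3.79 CPM, against 21.7 ± 5.48 CPM in wild fish (SD over 6 fish each; log2 fold change -1.14, adjusted p 0.0144, limma), and in each of the 6 pairs. The median log2 fold change of these regulators was -0.55, with 8 of 10 values negative, and perm1b lost its call with no filter on low counts (-0.997, adjusted p 0.111). At an unadjusted p under 0.05, 4 regulators were lower and 1 was higher (limma). With the pair number as a replicate block 2 regulators were called lower, perm1b and esrrga, an estrogen-related receptor (-1.18, adjusted p 0.0437, against 0.0646 without the block, limma). Plain library totals, totals without the 10 most abundant genes, and leaving out W72 or D63 alone also gave esrrga as lower. The regulator ppargc1b (-0.89, adjusted p 0.0772, limma) was called lower with totals without the 10 most abundant genes. It was also called lower without W63, W72 or D63 alone.

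Markers of other cells moved with the groups too. Of the markers of slow or oxidative fibres, whose mitochondria are more abundant, 14 were found and 5 tested, and 3 rose: the oxygen store myoglobin (mb) by 2.14 (adjusted p 0.0180, limma), casq2 by 1.84 (adjusted p 0.00673) and tnni4b.2 by 2.88 (adjusted p 0.0375). The other tested markers of this list had negative values and were not called, atp2a2b at -1.17 (adjusted p 0.0710) and myl2b at -0.24 (adjusted p 0.891). The summed level of the list was 149.7 to 693.4 CPM in domesticated fish and 41.59 to 156.8 CPM in wild fish, while tnnt1 and myl13 were at 0 in all libraries. In domesticated fish most of this sum was mb and tnni4b.2, so that it does not stand for the list. In W53 and W66 its largest part was atp2a2b, at 21.4 and 64 CPM. The call of casq2 held under all 22 settings that tested it, that of mb was lost in 2 of 23, with plain library totals (1.73, adjusted p 0.0584) and without W66 and W70 (2.20, adjusted p 0.0533), and that of tnni4b.2 in 10 of 23, among them without any single one of W53, W66, W72, D66, D68 and D70 (adjusted p 0.066 to 0.0859).

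Of the genes listed as red blood cell markers 3 of 3 tested rose (summed 333.3 to 1107 CPM in domesticated fish and 104.6 to 601.5 CPM in wild fish, with slc4a1a at 0). Nearly all of this sum was ank1a, so that it does not stand for the list. Means in domesticated and wild fish were 710 and 275 CPM for ank1a, 11.8 and 6.11 for alas2, and 15.5 and 4.05 for rhag. As for ckma, the lowest ank1a values were those of W70 (97.3 CPM) and W66 (148 CPM). Its highest values, in D66 (1090 CPM) and D63 (955 CPM), came with the highest values of the fast muscle marker casq1a (15900 and 16900 CPM). In D66 rhag was at its lowest among domesticated fish (7.54 CPM). Whether ank1a stands for red blood cells here was not tested. The untested hbae5 was at 6.06 CPM or less in every library. The call of rhag held under all 23 settings, while that of alas2 was lost in 13 of 23, 9 of them with a single library left out (all but W63, W72 and D63, adjusted p 0.0506 to 0.0829), and that of ank1a in 8 of 23, among them without any single one of W66, W70, W72, D63, D66, D70 and D72 (adjusted p 0.0527 to 0.0685). Of 4 fibroblast markers col1a1b rose (summed 4119 to 23420 CPM in domesticated fish and 279.7 to 7480 CPM in wild fish, with col1a1a at 0), and its call was lost in 13 of 23 settings, voom weights (adjusted p 0.0536) and any single one of W53, W66, W72, D63, D66, D68, D70 and D72 left out (adjusted p 0.0588 to 0.0917) included. All 4 had positive values, with col1a2 at 2.68 (adjusted p 0.0603, limma), dcn at 1.35 (adjusted p 0.0626) and fn1a at 0.68 (adjusted p 0.352) not called. Most of the fibroblast sum was col1a2, at means of 13151 CPM in domesticated and 3592 CPM in wild fish. Both col1a2 and dcn were called higher with the replicate block and without D53, and dcn also without W63 and without W68. Of 2 adipocyte markers fabp4a rose (adjusted p 0.0230, limma), a call lost in 4 of 23 settings, without D72 alone (adjusted p 0.0519) included, and plin2 was at -0.56 (adjusted p 0.180). The summed level of the adipocyte list was 86.3 to 199.9 CPM in domesticated fish and 50.75 to 81.32 CPM in wild fish. Most of this sum was fabp4a, so that it does not stand for the list. Means in domesticated and wild fish were 114 and 51.9 CPM for fabp4a, and 13.7 and 19.2 CPM for plin2.

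Leukocyte markers were not called in 5 tested (summed 1380 to 4654 CPM in domesticated fish and 970.5 to 2700 CPM in wild fish, with csf1ra at 0), nor were those of endothelium in 2 tested (32.61 to 86.21 CPM in domesticated fish and 45.98 to 75.21 CPM in wild fish). Most of the leukocyte sum was lcp1, at means of 2432 CPM in domesticated and 1278 CPM in wild fish (log2 fold change 0.89, adjusted p 0.130, limma). The marker mpx was also positive (0.75), while cd74a (-0.57), coro1a (-0.61) and cd8a (-0.21) were negative. With no filter on low counts lcp1 was called higher (adjusted p 0.0467), and without W53 coro1a was called lower (adjusted p 0.0464, limma). The part of these cell types in the changes of fh and suclg1 was not tested, and in RNA of whole tissue fewer cells of a type and less RNA per cell cannot be told apart.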

How the data were processed

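Fast muscle RNA of 6 domesticated and 6 wild females was measured, 1 library per fish label. The authors' deposited tables hold unnormalized read counts per annotated transcript. The submitters' processing notes name Trimmomatic 0.33, STAR, HTSeq and edgeR, and give no settings or other versions, nor what edgeR served for. The study's methods name the assembly O_niloticus_UMD_NMBU, and all 8 member transcripts matched its table of genes, which gave the positions. On average 51.5% of aligned reads were not unique, 13.4% ambiguous and 11.2% in no feature, and these lines were left out. Genes with near-identical copies may therefore share or lose reads. No sequence was at hand, and levels were not compared between genes, since no transcript length was used.

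Transcript counts were added per gene. Genes with at least 10 scaled counts in at least 6 libraries and 15 in all (8425) were changed to log2 CPM (pseudocount 0.5, TMM-scaled totals, which understates changes of low genes) and compared by limma 3.58.1 under R 4.3.3 (trend, robust, condition only, Benjamini-Hochberg). The deposited tables are separated by tabs under a comma-separated name. An automatic check of their unit could not read them, so the unit was recorded as other and count models were not used. When read by tabs, all values were whole numbers and none was negative. The fit was tested on simulated data. Python 3.11.15 with pandas 2.3.3 and matplotlib 3.10.9 handled tables and plots.

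The members and lists were chosen with earlier results of these data known. Named genes are all members, their complex partners, the called genes of the lists, and the 5 genes nearest to the members' average. The values of 1 such gene are not reported here. Called markers, genes nearest to single members, ratios within libraries and the 2 added alternatives (leaving out W66 and W70; totals without the 10 most abundant genes) were chosen after seeing the data. The other alternatives were scalings, filters, pseudocount, voom weights, the replicate block, a single transcript per member and each library left out. In the single-transcript fit only members were changed, and each tested member has 1 annotated transcript. That fit therefore repeated the reported one, yet it counts among the settings given for each gene. The labels state that equal numbers are genetic pairs. Over all genes, the libraries' distances from their group mean had a correlation of 0.21 in pair 53, 0.12 in pair 63, 0.046 in pair 66, -0.10 in pair 68, -0.089 in pair 70 and 0.046 in pair 72 (mean 0.039, against -0.0067 for other library pairs). Labels name 6 libraries per group without saying how the fish were reared or kept, so p-values measure the spread between these libraries only. Reads carry no molecular identifiers, so limits from counts cover counting error only.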

Additional observations from a re-analysis of the deposited data

Results flagged for a closer look

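The level of dlst in D53, 540 CPM, lay far from the other 5 domesticated libraries (191 to 236 CPM). Its gap to the nearest of them was 0.87 of the whole range of the group, above Dixon's critical value at 95% for a group of 6. The members gave 12 groups to look at, and chance sets apart about 1 in 20. Outside the members, D53 was also the highest domesticated library for dld, at 971 CPM against 301 to 466 CPM. For sucla2 it was at 395 CPM against 163 to 203 CPM.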

How the results depend on the processing

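The call of fh held under every alternative run, and cs, dlst, suclg2 and mdh2 were called under none. Plain library totals gave 680 genes called (87 higher, 593 lower), 1 member called and higher, suclg1 at 0.54 (not called) and dlst at -0.26. Totals without the 10 most abundant genes, an alternative added after seeing the data, gave 937 genes (147 higher, 790 lower), 1 member called and higher, suclg1 at 0.62 (not called) and dlst at -0.19, with a median of -0.35 over all genes. Leaving out W66 and W70, added likewise, gave 292 genes (155 higher, 137 lower), 1 member called and higher, suclg1 at 0.79 (not called) and dlst at -0.046. In that fit cs was at 0.43, against 0.83 with all libraries, and mdh2 at 0.27, against 0.63. Without a filter 352 genes were lower, of 786 called.

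Leaving out single libraries gave 628 to 1349 genes called, 321 to 730 higher, 307 to 643 lower, and 1 to 2 members called, all higher. The counts were lowest without D70. The log2 fold change ran from 1.56 to 1.88 for fh, 0.79 to 1.08 for suclg1, 0.62 to 1.00 for cs, 0.44 to 0.82 for mdh2, -0.60 to -0.23 for suclg2 and -0.078 to 0.26 for dlst, which turned without D53 (-0.078). The cause of these changes was not tested. The fit with a replicate block called 1062 genes, 911 of them shared with the 1112 reported, fh and suclg1 stayed called (adjusted p 0.00756 and 0.0396, limma), and no other member was called. Genes near or under 0.336 to 0.665 CPM, such as idh3a, could not be shown to differ with so few counts, whatever the reason for the low counts.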
